A study of Mus musculus with 8 samples.

Results

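NFATc2 was bound at 2889 places inside introns of protein-coding genes of D1 cells that carried no H3K4me3 peak in any of 3 conditions. These intronic sites made up 30.6% of the 9438 NFATc2 peaks (95% Wilson interval 29.7 to 31.5%). A peak was taken when its summit lay in an intron of a protein-coding gene, in no exon, over 1 kb from every transcription start site (TSS) and when it shared no base with an H3K4me3 peak. D1 is a long-term dendritic cell line from the spleen of C57BL/6 mice. For NFATc2, the cells stably expressed NFATc2 with a V5 tag from a lentiviral transgene beside their own gene, were sorted for low GFP and received 10 µg/ml curdlan for 30 min. For H3K4me3, D1 cells were non-treated (NT), or received 10 µg/ml curdlan for 2 h, without or with FK506, whose dose in these libraries was not taken from the sources used here. Each condition had 1 ChIP and 1 input library, so no condition had a replicate, no test between conditions was possible, and every interval below covers counting error only. NFATc2 was not mapped in non-treated cells or with FK506, so these sites are those seen with curdlan and not sites shown to respond to it. The labels, which call NFATc2 NFAT1, do not say whether the cells of the H3K4me3 libraries carried the transgene.

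NFATc2 is a transcription factor held in the cytoplasm by phosphorylation. Curdlan, a fungal β-glucan, is recognized by dectin-1 and raises calcium through Syk, and the phosphatase calcineurin then releases NFATc2 to the nucleus. FK506 blocks calcineurin. NFAT proteins recognize a GGAAA core, often beside an AP-1 element (TGANTCA, where N is any base). H3K4me3 marks the promoters of active or poised genes, and binding inside introns away from this mark is the usual place of gene-distal regulatory elements.

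The sequences below are a summit with 50 bases to each side, read from mm9 and written 5′ to 3′ on the plus strand, with GGAAAA and TGANTCA or their reverse complements in capitals. The first 5 are the sites of Rcan1, an inhibitor of calcineurin and a classical NFAT target. All 5 lay in the same intron of 68.4 kb, the first of its transcript, between 22.3 and 50.2 kb from the 5′ end of the gene model.
Rcan1, chr16:92440146-92440246: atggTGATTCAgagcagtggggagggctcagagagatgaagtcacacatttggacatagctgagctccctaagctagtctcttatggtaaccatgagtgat
Rcan1, chr16:92423827-92423927: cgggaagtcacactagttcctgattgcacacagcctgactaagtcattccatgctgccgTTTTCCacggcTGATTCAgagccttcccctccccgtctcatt
Rcan1, chr16:92444038-92444138: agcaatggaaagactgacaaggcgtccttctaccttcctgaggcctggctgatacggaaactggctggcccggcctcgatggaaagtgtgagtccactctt
Rcan1, chr16:92416123-92416223: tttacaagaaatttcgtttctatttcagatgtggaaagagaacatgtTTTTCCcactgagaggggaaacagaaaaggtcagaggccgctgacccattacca
Rcan1, chr16:92421644-92421744: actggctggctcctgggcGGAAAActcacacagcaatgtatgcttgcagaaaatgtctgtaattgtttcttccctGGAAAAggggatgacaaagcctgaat
In this order the sites had fold enrichments of 81.6, 54.17, 33.56, 19.66 and 18.2 over input, and 152, 134, 85, 193 and 46 tags. The site at 81.6 had the highest fold enrichment of all 2889 intronic sites and had a TGANTCA match and no GGAAAA match in these bases.

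The next sequences are 4 other sites among the 10 of highest fold enrichment and 1 site of Vav3 below the median (10.26-fold), shown because they differ in what they hold at the summit.
Atg7, chr6:114604232-114604332: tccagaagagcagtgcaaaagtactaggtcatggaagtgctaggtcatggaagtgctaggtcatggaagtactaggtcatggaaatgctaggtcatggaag
Itgae, chr11:72916711-72916811: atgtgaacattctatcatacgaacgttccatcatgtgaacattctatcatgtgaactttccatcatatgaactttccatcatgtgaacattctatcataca
Adam10, chr9:70539935-70540035: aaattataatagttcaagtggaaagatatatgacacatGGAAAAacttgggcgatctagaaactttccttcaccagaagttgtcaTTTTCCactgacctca
Dock11, chrX:33459675-33459775: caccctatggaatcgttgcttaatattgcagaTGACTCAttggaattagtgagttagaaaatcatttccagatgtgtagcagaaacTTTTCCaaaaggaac
Vav3, chr3:109249474-109249574: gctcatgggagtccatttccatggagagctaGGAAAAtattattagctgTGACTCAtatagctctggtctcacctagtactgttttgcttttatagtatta
The summits at Atg7, an autophagy enzyme, and Itgae, the CD103 integrin chain of a dendritic cell subset, lay in short tandem repeats, with 5 and 3 copies of TGGAA or its reverse complement in the printed bases. Whether the mapping of reads to such repeats moved their fold enrichment, 76.04 and 68.11, was not tested. Adam10, a membrane protease, had 2 GGAAAA matches. At Dock11 and at Vav3, regulators of the actin skeleton, both words stood within the printed bases, and in Vav3 TGACTCA followed GGAAAA on the same strand.

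The rule removed peaks in steps. Of all NFATc2 peaks, 4437 had their summit in an intron of a protein-coding gene, 4267 of these were in no exon, 3745 were also over 1 kb from any TSS, and 856 of the 3745 shared bases with H3K4me3. Of these 856, 584 overlapped the mark in all 3 conditions, 78 in NT cells alone, 47 with curdlan alone and 30 with curdlan and FK506 alone. Near the limits, the 66 intronic sites at 1010 to 1476 bp from a TSS had a median fold enrichment of 13.1, against 16.3 for 82 unmarked intron peaks at 504 to 993 bp. The 62 sites under 0.5 kb from an H3K4me3 peak had a median of 13.7, against 12.55 for the 48 intron peaks that shared under 0.5 kb with one. The median distance from a site to the nearest H3K4me3 peak was 21.7 kb in NT cells (interval 20.6 to 23.4). It was 23.4 kb with curdlan (21.7 to 24.9) and 23.7 kb with FK506 (22.0 to 25.2). The rule itself left out sites that touch a peak, and these distances were not compared with those of other intron sequence.

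Binding at the intronic sites was of the same order as elsewhere, with fewer tags and slightly higher fold enrichment than at promoters. The median intronic site had 57 tags (interval 56 to 59, range 15 to 601) and a fold enrichment of 13.39 (13.26 to 13.75, range 4.23 to 81.6). Peaks within 1 kb of a TSS had a median of 65 tags (63 to 68) and 12.2-fold enrichment (11.8 to 12.5), and intron peaks with H3K4me3 had 84 tags (79 to 90) and 12.6-fold (12.0 to 13.0). Neither pair of intervals overlapped those of the unmarked intronic sites. Intergenic peaks without H3K4me3 had 58 tags (56 to 60) and 14.1-fold (13.9 to 14.3), and exon peaks 57 tags (50 to 63) and 12.6-fold (12.1 to 13.7). Peaks with H3K4me3 were also longer, 1314 bp in introns against 1025 bp, and the part of length in the tag counts was not tested. Of the intronic sites, 1388 (48.0%, interval 46.2 to 49.9) had a p of 1e-10 or less, against 47.0% of promoter peaks (44.3 to 49.7), and these intervals overlapped.

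**Figure D1:**
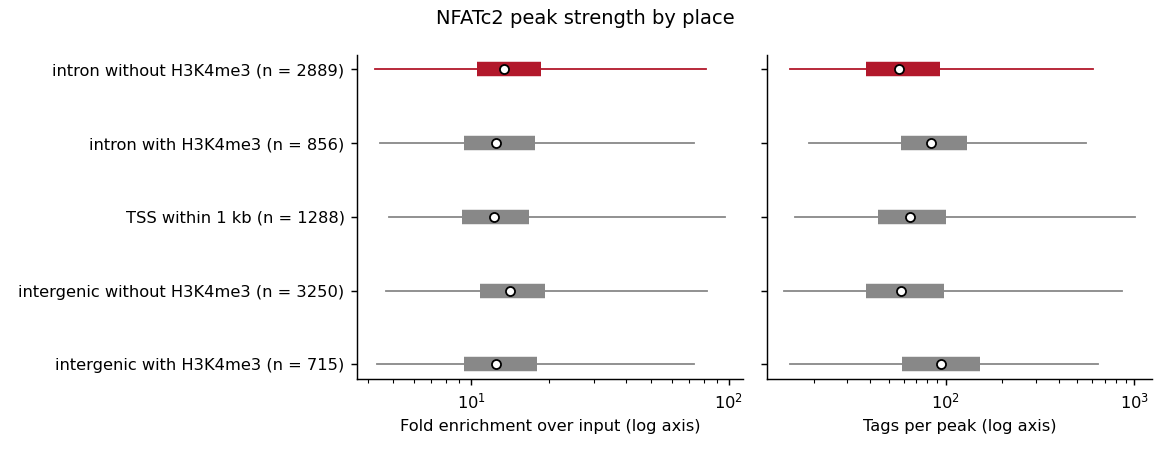
Fold enrichment over input (left) and tags per peak (right), both on log axes, for 5 classes of NFATc2 peaks. Thin lines give the range, thick bars the interquartile range and circles the median; intronic sites without H3K4me3 (red) had a median of 13.39-fold and 57 tags, against 12.2-fold and 65 tags within 1 kb of a TSS.

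The sites with most tags were broader than those with the highest fold enrichment. The 10 sites of highest fold enrichment were 0.884 to 1.72 kb long, 8 of them lay in an intron that is the first of a host transcript, and after Rcan1 and Atg7 they were those of Abca13 (74.81, a transporter), Cass4 (72.12), F7 (71.79, a coagulation factor), Mertk (70.59, a receptor for apoptotic cells), Itgae, Adam10 (64.0), Slco3a1 (62.93) and Dock11 (61.45). The 10 sites with most tags were 2.23 to 7.25 kb long and shared none with those 10. They were led by Atp8b1, a phospholipid flippase (601 tags, 33.08-fold), Snx8 (561 tags, 29.17-fold), Grk5 (548 tags, 30.65-fold) and a pair in Sgms1, a sphingomyelin synthase (532 and 524 tags). The others were in Ptpn12 (511 tags), a phosphatase, Cdk6 (490), a cell cycle kinase, A930011G23Rik (439), Zcwpw1 (401 tags, 8.93-fold) and Casr (397), the calcium-sensing receptor. By score, Atp8b1 and Atg7 led, and Phactr2, Adam10, Slco3a1 and Gm11158 were also among the highest 10. The 6 intronic sites with an FDR above 5%, from 5.26 to 25%, were the 6 with the highest scores of all, Atp8b1, Atg7, Gabpb1, Hhat, Dab2 and Cass4. MACS estimates this FDR from another round of calling in which the 2 libraries change places.

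The NFAT word was centred on the summits. GGAAAA stood within 100 bp of the summit, on either strand, at 1329 intronic sites (46.0%, interval 44.2 to 47.8), against 17.7% (16.7 to 18.7) of windows of the same 201 bases whose centres lay 1 kb to each side. Over all 9438 NFATc2 peaks the share was 45.6%, and at promoter peaks 48.1% (45.4 to 50.9), so the word did not set the intronic sites apart. With the sites split by fold enrichment into 4 equal groups, it was present at 38.5% of the lowest (35.0 to 42.0) and 50.97% of the highest (47.3 to 54.6). Split by tags the shares ran the other way, 51.04% in the lowest group and 44.0% in the highest. The word TGGAAA, which overlaps GGAAAA in 5 letters and was added after the sequences above were seen, stood at 59.6% of sites (57.8 to 61.4) and 18.1% of neighbouring windows, and over all NFATc2 peaks at 58.1%. The 5-letter core GGAAA, which both words contain, stood at 86.6% of sites and 48.9% of neighbouring windows, and over all peaks at 86.7%.

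**Figure D2:**
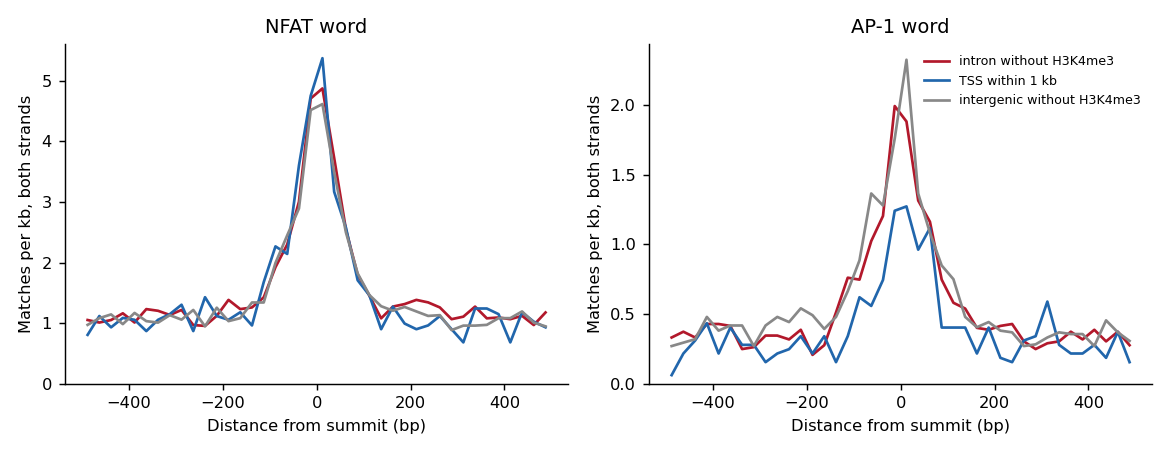
Matches per kb of GGAAAA (left) and TGANTCA (right), both strands, in bins by distance from the summit (bp) for 3 classes of peaks. At intronic sites (red) GGAAAA rose from 1.05 per kb at the edge to 4.87 per kb at the summit, and TGANTCA from 0.332 to 1.99 per kb, while the AP-1 word was lower at promoter peaks (blue).

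AP-1 words were more frequent at intronic sites than at promoter peaks, but not than at intergenic peaks without H3K4me3. TGANTCA stood within 100 bp at 646 sites (22.4%, interval 20.9 to 23.9), at 16.1% of promoter peaks (14.2 to 18.3) and at 21.8% of all peaks. It stood at 24.0% of intergenic peaks without H3K4me3 (22.5 to 25.5) and 20.2% of intron peaks with it (17.7 to 23.0). Neighbouring windows held it in 6.06% for intronic sites and in 4.70% for promoter peaks. The share at the site was 3.69 and 3.44 times that of these windows, so the rise over nearby sequence was similar. Both words were present at 255 sites (8.83%), GGAAAA alone at 1074, TGANTCA alone at 391 and neither at 1169 (40.5%). The median fold enrichment was 14.8 with both words (14.0 to 16.0) and 12.9 with neither (12.5 to 13.2). A TGANTCA that began within 20 bases after GGAAAA on the same strand was found at 50 sites (1.73%, 1.32 to 2.27), against 0.138% of neighbouring windows and 1.49% of all peaks. With the looser TNNNTCA in its place, of which TGANTCA is 1 form, the share was 6.96%, against 1.68% of neighbouring windows and 7.12% of all peaks.

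Words of other myeloid factors were present too. GAGGAAGT, a word of PU.1, a factor of all myeloid cells, stood at 9.31% of intronic sites (8.30 to 10.4) and 1.12% of neighbouring windows (9.27% of all peaks). TGTGGT, the RUNX word, stood at 30.3% (28.7 to 32.0) and 16.4% (28.4% of all peaks), and was less frequent at promoter peaks, 20.3% (18.2 to 22.6). Its share was 30.5% at intergenic peaks without H3K4me3 and 27.8% at intron peaks with it. GGGANTTTC, an NF-kB word, stood at 1.35% (0.989 to 1.84) and 0.71% (0.524 to 0.961), and over all peaks at 1.56%. TTGCNNAA, a C/EBP word, stood at 8.13% (7.19 to 9.19) and 8.46% (7.77 to 9.21), and over all peaks at 9.05%, with no separation of site from neighbouring window. These are matches of letters and not measured binding. GC content differed between classes, with a median of 45.3% at intronic sites and 48.8% at promoter peaks, and its part in these shares was not tested.

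The intronic sites had 1802 host genes. Of all 22254 protein-coding genes, 8.1% held a site, and of the 10885 with a promoter H3K4me3 peak with curdlan, 12.9% did. A single host was found for 2837 sites, and 52 lay in introns of more than 1 overlapping gene. Hosts were long genes, with a median length of 81.2 kb against 19.6 kb for other genes with eligible intron, that is intron outside exons, TSS surroundings and H3K4me3 peaks. A gene with more eligible intron has more room for a site, so the rule itself favours long genes. One site was found in 1212 hosts, 2 in 328 and 3 or more in 262 (14.5%), and these 262 hosts held 1056 of the sites (36.6%). The median gap between neighbouring sites was 192.3 kb, and 789 sites (27.3%) were in runs of 2 or more with gaps of at most 12.5 kb, and 73 runs held 3 or more.

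Most sites were nearest to their own host's start, though often far from it. The nearest TSS belonged to the host for 2036 sites (70.5%, interval 68.8 to 72.1), and the median distance to a host TSS was 17.5 kb (16.3 to 18.5). In an intron that is the first of some host transcript lay 1267 sites (43.9%), and density was higher there, 4.18 sites per Mb of eligible intron (3.95 to 4.41), than in later introns, 2.96 (2.82 to 3.11). By distance from any TSS the density was 3.92 per Mb at 1 to 5 kb, 4.62 at 10 to 20 kb (4.29 to 4.96) and 1.19 beyond 100 kb (0.984 to 1.43).

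Grk5, Acoxl and Bre held the most sites among gene models of usual length. Grk5, a kinase that desensitizes G-protein-coupled receptors, held 11 sites over 144 kb with 45 to 548 tags, and Acoxl, an acyl-CoA oxidase-like gene, held 10 with 43 to 252 tags. In Bre, a component of a deubiquitinating complex, 10 sites had 27 to 243 tags and fold enrichments of 6.11 to 38.3. Ubash3b (chr9:40819181-40969780, minus strand), a phosphatase that opposes Syk, held 9, and 8 of them formed the longest run, 46.2 kb of an intron of 79.8 kb, with fold enrichments of 8.25 to 40.06. Acoxl had a run of 5 sites within 20.1 kb, all with 162 tags or more. Sgms1, Arfip1, 2610528E23Rik and Lpp also held 9 each, and 8 of the 9 in 2610528E23Rik were counted for the overlapping Filip1l as well. Arfip1 is a very long model of 1391 kb, and 3 of its 9 sites had another host. Enox1, Filip1l, Asap1 and Arhgap24 held 8 each, and Ralgps1 7 of up to 47.45-fold enrichment. The highest count, 23, was for Gm20388, a model of 4.43 Mb that holds 72 other protein-coding genes, and 17 of its sites had no other host. Of the 15 hosts with most sites, 12 had promoter H3K4me3 with curdlan and 4 (Grk5, Bre, Ubash3b and Arhgap24) also had an NFATc2 site within 1 kb of a TSS.

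**Figure D3:**
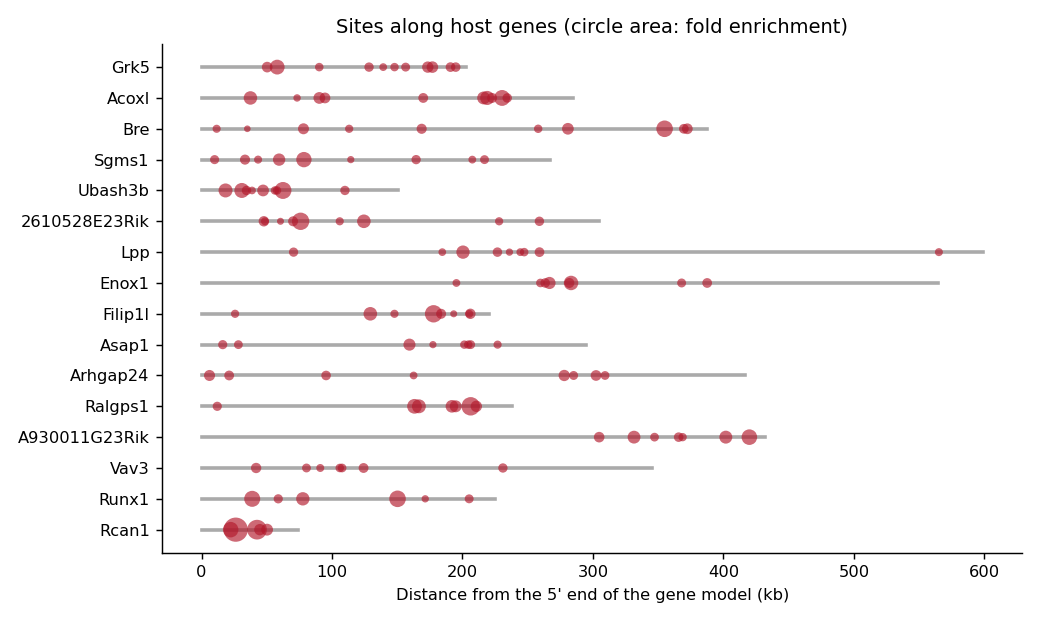
Intronic sites (circles, area by fold enrichment) along 16 host genes (grey lines), by distance from the 5′ end of the gene model in kb; 13 are those with most sites apart from models over 1 Mb, with Vav3, Runx1 and Rcan1 added. The 5 sites of Rcan1 and 8 of the 9 of Ubash3b sat in 1 part of the gene, and those of Bre were spread along it.

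Genes of the calcineurin pathway and of dectin-1 signalling included 13 and 17 hosts. Of 30 genes of NFAT, calcineurin and store-operated calcium entry, 13 held 24 sites, or 7.79 per Mb of eligible intron (interval 4.99 to 11.6), beside 3.40 per Mb (3.28 to 3.52) over all protein-coding genes and 8.1% of all genes as hosts. Of these 30 genes, 25 had a marked promoter, and the interval also held the density in all genes with a marked promoter, 5.90 per Mb. After Rcan1 with 5 came Nfatc1, a family member, Ppp3ca, the catalytic subunit of calcineurin, and Itpr1, the calcium release channel, with 3 each, and Stim2, a sensor of calcium stores, with 2. Nfatc2 itself held 1 site of 31 tags and 10.45-fold enrichment, 7.01 kb from its nearest TSS, and the strongest Nfatc1 site had 349 tags and 21.21-fold enrichment. Of 36 genes of dectin-1 and Syk signalling, 17 held 41 sites (12.54 per Mb, 8.996 to 17.0). They included Vav3 with 7, and Prkca, a protein kinase C, and Inpp5d, the phosphatase SHIP-1, with 4 each.

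Hosts were also common among regulators of the actin skeleton and among myeloid transcription factors. Of 44 genes of actin control and phagocyte adhesion, 26 held 72 sites (11.8 per Mb, 9.20 to 14.8), led by the GTPase-activating Arhgap24 with 8 and Arhgap26 with 7, and Dock10 with 6. Of 42 myeloid and dendritic cell transcription factors, 17 held 38 sites (10.9 per Mb, 7.75 to 15.03). Runx1 held 6 sites of 7.49- to 38.27-fold enrichment, the repressor Etv6 held 5, and Runx2, Mitf and Ikzf1 held 4 each, while Elf1 had a site of 51.65-fold. Of 28 genes of the Toll-like receptor and inflammasome pathway, 5 held 12 sites in 0.573 Mb (20.95 per Mb, 10.8 to 36.6), among them Irak2, a kinase of Toll-like receptor signalling, with 4 (one of 260 tags and 55.66-fold), and Nod2, an intracellular sensor of bacterial wall, with 4 in 13.7 kb. Of 34 genes of MAP kinases, phosphatases and SOCS, 11 held 15 sites (11.0 per Mb, 6.17 to 18.2), and Mapk14, the p38α kinase, had 2 with 16.34- and 27.81-fold enrichment.

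The other lists ran from below to above these densities. Of 28 AP-1, bZIP and immediate early genes, 5 held 8 sites (11.3 per Mb, 4.88 to 22.3), with 53.44-fold enrichment at Nfil3. Of 36 cytokine, chemokine and growth factor receptors, 10 held 12 (9.98 per Mb, 5.15 to 17.4), with 3 in Il6ra, and of 31 NF-kB and TNF receptor genes, 5 held 1 each (6.52 per Mb, 2.12 to 15.2), with Rel at 21.55-fold. Of 21 genes of cyclic AMP and prostaglandin signalling, 5 held 10 sites (3.46 per Mb, 1.66 to 6.37), close to the figure for all genes. Of 39 cytokine and chemokine genes that the study had chosen on these samples, 5 held 6 sites in 0.268 Mb (22.4 per Mb, 8.21 to 48.7). Ccl1 held 2 of these sites, in a long gene model of 129.0 kb. This model alone made up 122.3 kb of the eligible intron of the list. Long genes of neurons and cell adhesion, listed for their long introns, held 16 sites in 9 of 40 genes, or 0.339 per Mb (0.194 to 0.550), with 4 in Odz4. All 12 markers of myeloid and dendritic cells had promoter H3K4me3 in each condition, and of 12 markers of other lineages only Lck had it, with 328, 494 and 434 tags in NT, curdlan and FK506.

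Host genes had promoter H3K4me3 more often than other genes, and as often without curdlan as with it. A peak within 1 kb of a host TSS was present for 1405 of 1802 hosts in NT cells (78.0%, interval 76.0 to 79.8), 1403 with curdlan (77.9%, 75.9 to 79.7) and 1393 with curdlan and FK506 (77.3%, 75.3 to 79.2), and for 1384 in all 3. Among 16271 genes with eligible intron and no site, the share with curdlan was 52.0% (51.2 to 52.7), and over all protein-coding genes 48.9%. It was 75.5% for hosts of 1 site (73.0 to 77.8), 81.7% for hosts of 2 (77.2 to 85.5) and 84.0% for hosts of 3 or more (79.0 to 87.9). NFATc2 was also bound within 1 kb of a TSS in 227 hosts (12.6%, 11.1 to 14.2), against 5.18% (4.85 to 5.53) of genes with eligible intron and no site. Among genes with promoter H3K4me3 with curdlan, the shares were 15.04% of hosts (13.3 to 17.0) and 9.16% of the others (8.56 to 9.79).

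The density of sites was higher in introns of genes with a marked promoter, and the ratio to unmarked genes was largest in the longest genes. Here, and for the gene lists, a site in introns of more than 1 gene was counted for each host. Genes with a promoter peak with curdlan held 5.90 sites per Mb of eligible intron (interval 5.66 to 6.14) and genes without one 1.27 (1.17 to 1.37), a ratio of 4.65 (4.25 to 5.09). By eligible length the ratio was 0.95 under 5 kb, where 14 and 16 sites were counted and the intervals overlapped, 2.57 at 20 to 50 kb, and 6.72 over 250 kb, where the densities were 4.59 (4.15 to 5.07) and 0.684 (0.581 to 0.798). Among genes over 250 kb, 137 of 184 marked genes were hosts (74.5%) and 71 of 455 unmarked ones (15.6%).

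**Figure D4:**
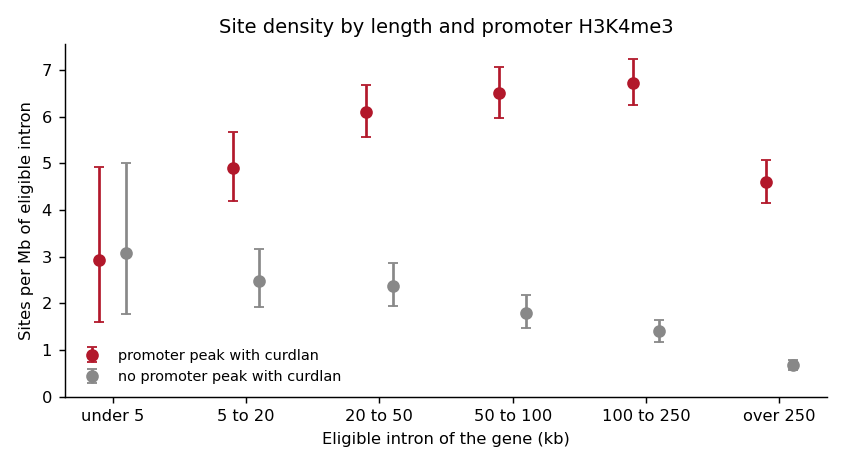
Sites per Mb of eligible intron (vertical axis) by the eligible intron length of the gene in kb (horizontal axis), for genes with (red) and without (grey) a promoter H3K4me3 peak with curdlan. Bars are exact 95% Poisson intervals; the points nearly coincide under 5 kb and are 4.59 and 0.684 per Mb over 250 kb.

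Sites in unmarked genes had fewer tags at a like fold enrichment. The 571 sites with no marked host (19.8%) had a median fold enrichment of 13.7 (13.3 to 14.1) and those with one 13.4 (13.2 to 13.7), with tags of 50 (45 to 54) and 59 (57 to 61). GGAAAA was present at 43.6% (39.6 to 47.7) and 46.6% (44.6 to 48.6), and TGANTCA at 23.5% (20.2 to 27.1) and 22.1% (20.4 to 23.8). The unmarked hosts with most sites were Acoxl with 10, Enox1 with 8 and A930011G23Rik, Ctnnd2, Myo16 and Rapgef4 with 7 each. In A930011G23Rik all 7 lay 305 to 420 kb from the 5′ end of a model of 432 kb, and the strongest had 439 tags and 23.36-fold enrichment.

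By fold enrichment, promoter H3K4me3 moved with curdlan in about the same share of host genes as of all genes. Fold enrichment was higher with curdlan than in NT cells at most promoters, by a median of 0.73 on the log2 scale over all genes, so ratios were centred on that median. The peak with most tags was taken for each gene in each list, so the peaks of a ratio could differ in place or width. Of 1394 hosts with a promoter peak in both lists, 60 (4.30%, interval 3.36 to 5.50) were 2-fold or more higher with curdlan, beside 4.01% of all 10776 such genes, and 45 (3.23%) were 2-fold or more lower, beside 3.91%. Against curdlan with FK506, 47 of 1388 hosts (3.39%, 2.56 to 4.47) were higher, beside 4.12%, and 41 (2.95%) were lower, beside 3.47%. The median centred log2 ratio of hosts was 0.01 (-0.03 to 0.05) over NT and 0.01 (-0.03 to 0.04) over FK506. A promoter peak was in the curdlan list and not in NT for 9 hosts (0.499%), beside 0.49% of all genes, in NT and not with curdlan for 11 (0.61%), beside 0.58%, and with curdlan and not with FK506 for 15 (0.832%), beside 0.517%. These shares stood near those of all genes, and each interval for hosts held the value for all genes.

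**Figure D5:**
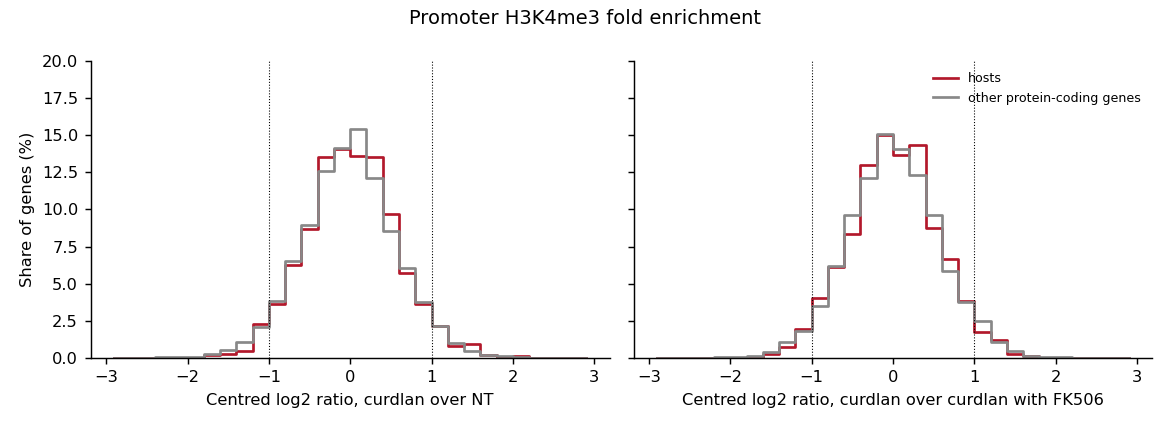
Share of genes (%) by centred log2 ratio of promoter H3K4me3 fold enrichment, curdlan over NT (left) and curdlan over curdlan with FK506 (right), for hosts (red) and other protein-coding genes (grey). Dotted lines mark 2-fold; the curves lie on each other, with 4.30% of hosts past 2-fold higher over NT.

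The host promoters that were highest with curdlan depended on the measure. By fold enrichment the leading hosts were Arsb (19.92 in NT, 143.33 with curdlan and 59.9 with FK506), Sh3bp5 (12.95, 92.78 and 42.16) and Bbs4 (24.62, 145.89 and 52.51). Arsb had 462, 485 and 420 tags and Bbs4 419, 417 and 425. Per kb of peak, scaled to the library total, both were lower with curdlan than in NT (9.49 against 12.07 for Arsb and 9.08 against 12.22 for Bbs4). Centred on the median over all genes, these log2 ratios were -0.16 for Arsb and -0.25 for Bbs4. With these centred ratios of tags per kb in place of fold enrichment, 11 hosts were 2-fold or more higher over NT (0.789%, interval 0.441 to 1.41), beside 0.306% of all genes. By the same measure 2 hosts were 2-fold or more lower, beside 0.0557% of all genes. The interval for the higher hosts lay above the value for all genes, on 11 genes. Of the 60 hosts higher by fold enrichment, 22 were below 0 by tags per kb. By both measures 5 hosts were higher: Sema7a, a membrane semaphorin, Foxn3, Myo1d, Syne2 and Pvrl1, the adhesion receptor nectin-1. Of these 5, only Sema7a was also 2-fold or more higher than with FK506 by fold enrichment, which was 14.12 in NT, 78.44 with curdlan and 27.98 with FK506 (85, 656 and 220 tags). In the same order Foxn3 had 14.08, 69.33 and 31.26 (85, 682 and 123 tags), Myo1d 15.56, 76.8 and 78.44 (201, 608 and 334 tags), Syne2 27.89, 103.33 and 62.06 (267, 657 and 487 tags) and Pvrl1 29.13, 112.8 and 60.77 (462, 1275 and 452 tags). Their intronic sites numbered 1 in Sema7a (58 tags, 26.94-fold, 8.20 kb from the 5′ end), 1 in Foxn3 and 3 in Pvrl1, with 120 to 173 tags. By tags per kb, Foxn3 and not Sema7a was 2-fold or more higher than with FK506, at centred log2 ratios of 1.11 and 0.97. None of the 5 passed 2-fold over FK506 by both measures.

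Among the 9 hosts with a promoter peak with curdlan and none in NT, Ccl1, a chemokine, had the most promoter tags, 489 with curdlan and 122 with FK506, though its fold enrichment was 17.11 and 11.24, a centred log2 ratio of 0.34. Its 2 sites, of 104 tags (18.69-fold) and 29 tags (8.67-fold), lay in a 63.2 kb intron of a long model, 24.1 and 18.1 kb from the nearest TSS. Ildr1 had 322 promoter tags with curdlan and no peak with FK506, and 1 site of 194 tags, and Pdzk1ip1 and Akap6, with 183 and 138 promoter tags, likewise had no peak with FK506. Slc8a2, a sodium-calcium exchanger, had 253 promoter tags with curdlan and 96 with FK506 but fold enrichments of 16.67 and 17.67, and 1 site of 160 tags. Rcan1, with the site of highest fold enrichment, had 145, 220 and 171 promoter tags in NT, curdlan and FK506, and fold enrichments of 37.05, 26.77 and 30.9.

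In the gene lists, promoter H3K4me3 of few hosts was past 2-fold by fold enrichment. For NFAT and calcineurin, 0 of 12 hosts with a promoter peak in both lists were higher with curdlan than in NT and 1 was lower, and over all 25 such genes of the list 1 was higher and 3 lower, with a median centred log2 ratio of -0.19. For dectin-1 and Syk signalling, 1 of 16 hosts was higher (Cbl, a ubiquitin ligase, by 1.10 on the log2 scale) and 1 lower (Clec4n, the receptor dectin-2, at -1.06), and over all 34 genes the median was -0.17. Among 17 hosts of the myeloid transcription factor list, Zeb2 was higher by 1.37 and Bcl11a lower at -1.33, beside a list median of 0.02, and among 26 hosts of the actin list 0 were higher and Arhgap25 was lower at -1.13. Rcan1 was the lower host of the NFAT list, at -1.20. By tags per kb none of these 6 promoters passed 2-fold, with centred log2 ratios of -0.37 (Cbl), 0.18 (Clec4n), 0.45 (Zeb2), -0.01 (Bcl11a), -0.11 (Arhgap25) and -0.37 (Rcan1).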

How the data were processed

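Peak lists of 4 ChIP libraries and their 4 input libraries of D1 cells were used. Per the labels, Bowtie was used for the alignment of single-end reads to mm9. Per the file headers, at most 1 duplicate tag was kept and MACS 1.4.2 called peaks for each ChIP against its input at p 1e-05. The deposited lists hold a count of tags per peak, a score that rises as p falls (a scaled −log10 of p), the fold enrichment, a ratio over the local input background, and the FDR in percent. NFATc2 had 14377535 ChIP and 10935820 input tags; H3K4me3 ChIP totals were 16662316 (NT), 21289349 (curdlan) and 19468498 (FK506). Genes came from GENCODE for NCBIM37 (Ensembl 65), with overlapping protein-coding entries of 1 name merged; no peak passed a chromosome end.

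Computed here (Python 3.11.15, pandas 2.3.3, numpy 2.4.6, scipy 1.17.1) were the classes, hosts, words, promoter peaks (most tags within 1 kb of a TSS) and densities, with functions tested on simulated data. Intervals are 95%: Wilson for shares, order statistics for medians, exact Poisson for densities, and a normal approximation on the log scale for the ratio of densities. They treat sites as independent, which neighbouring sites are not. The members and gene lists were chosen with earlier results of these data known. Named were the 15 hosts with most sites, the hosts of the 10 sites highest in fold, tags or score, listed genes with most sites or highest fold, and the hosts highest with curdlan or with a peak only then; Syne2, Pvrl1 and the unmarked hosts were named after their values were seen.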

Additional observations from a re-analysis of the deposited data

How the results depend on the processing

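No paired analysis was possible because each condition had 1 ChIP library. Of 99 values under alternatives, 85 stayed within 1.5 times the count or within the interval of the reported value. With NFATc2 peaks of p 1e-10 or less, which keeps fewer and stronger peaks, there were 1388 sites in 1015 hosts, 91 of them with 3 or more sites, with medians of 88 tags and 18.6-fold enrichment, and promoter H3K4me3 at 79.9% (NT) and 79.2% (FK506) of hosts. The density ratio of marked over unmarked genes was 5.28 for sites over 5 kb from any TSS. GGAAAA was within 50 bp at 33.6% and within 250 bp at 62.5% of sites, and TGGAAA and GGAAA, both chosen after seeing the data, stood at 59.6% and 86.6%. The share of hosts past 2-fold higher over NT was 0.789% by tags per kb and 32.1% without centring. Leaving out the model Gm20388, also chosen after seeing the data, left 1801 hosts and a ratio of 4.65. With 1 library per condition, biological spread is unknown, and a site missed at this depth counts as absent.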
